A study of Rattus norvegicus with 12 samples.

Results

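The 6 genes described here, Hspb1, Hspb2, Hspb6, Hspb7, Hspb8 and Cryab, encode small heat shock proteins that are abundant in muscle. They were chosen as members of the family known from muscle, with earlier results of these data known. Hspb3, which is also known from muscle, was not among them and is given further below. All 6 had a row among the 33294 genes of the count table. The counts came from poly(A) RNA-Seq of PAC1, a smooth muscle cell line from rat pulmonary artery. The line can be kept more differentiated (PAC1-D) or, by more frequent and thinner splitting, more proliferative (PAC1-P). The 12 libraries formed 4 groups of 3. D1 was PAC1-D with control siRNA, P was PAC1-P with the same control siRNA, RBPMS KD1 was PAC1-D with siRNA against RBPMS, and MBNL KD was PAC1-D with siRNAs against MBNL1 and MBNL2 together. Every group was transfected with 90 pmol of siRNA, so that the controls had also been exposed to the transfection reagent and to a scrambled duplex. By the labels, a second transfection followed after 24 h and the cells were taken 48 h after it, whereas the study's methods give longer intervals, so that the duration of knockdown is uncertain. All groups were grown from a single cell line, D1 and P differed in culture history as well as in state, and the study lists a single siRNA sequence for each target, so that effects of a target and of its siRNA cannot be told apart.

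Small heat shock proteins are chaperones that work without ATP. They share an alpha-crystallin domain, assemble into oligomers and hold unfolding proteins until chaperones of the Hsp70 type can refold them or pass them on for degradation. In muscle they bind actin filaments, intermediate filaments and filamins, and several of them are phosphorylated when the cells contract or relax. Some of the genes are induced by heat shock factors, whereas others are expressed in muscle without stress.

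Total counts lay between 80842635 and 90771289 per library, and MBNL KD replicate 3, which had the lowest total, also stood apart from its group. Over genes, chi-square per degree of freedom was 12.8 for both of its pairs with the other MBNL KD libraries and between 3.68 and 7.70 for all other pairs of replicates. Results of the small heat shock genes in MBNL KD, and some of those of their partners and the gene lists, are therefore also given without it. The targeted mRNAs were low in the libraries labelled as knockdowns, with Rbpms at 25.01% of the D1 mean in RBPMS KD1, and Mbnl1 at 23.8% and Mbnl2 at 29.6% in MBNL KD. Smooth muscle markers were present in every group, although their summed level was between 9804 and 10310 CPM (counts scaled to the size of the library) in D1, between 4886 and 5060 in RBPMS KD1, between 7829 and 7945 in MBNL KD and between 211 and 224 in P. Markers of other cell types also differed between the groups, mostly through single genes. The 5 fibroblast markers summed to between 1220 and 1245 CPM in D1, 276 and 287 in P, 1145 and 1170 in RBPMS KD1, and 756 and 783 in MBNL KD. Most of this sum was Col14a1, with means of 1081 CPM in D1 and 89.9 in P, while 2 of the 5 markers were higher (Dcn and Lum) and 2 lower in P, beside 40.4% and 37.6% of all genes. In RBPMS KD1, 3 of the 5 were higher and 2 lower, beside 29.5% and 29.5%, with a median log2 fold change of 0.67, and in MBNL KD 1 was higher and 4 were lower, beside 33.8% and 33.7%. The 10 striated muscle markers summed to between 4.34 and 4.76 CPM in D1, 26.9 and 27.3 in P, 1.64 and 2.01 in RBPMS KD1, and 9.56 and 11.1 in MBNL KD, and the rise in P was largely in Ryr1, from a mean of 0.342 to 23.6 CPM. In MBNL KD the rise was largely in Tnnt2, from a mean of 2.85 to 8.67 CPM, while Ckm was at 34.3% of its D1 mean. Myod1 and Myh6 were at 0 in D1 and RBPMS KD1, and Myod1 had between 44 and 64 counts in each MBNL KD library. The 6 macrophage markers, mainly Cd14, summed to between 58.3 and 62.5 CPM in D1, 48.8 and 51.0 in P, 84.5 and 86.9 in RBPMS KD1, and 52.5 and 55.6 in MBNL KD, with Ptprc at 0 in D1 and MBNL KD and Adgre1 at 0 in both knockdowns. The 5 epithelial markers, mainly Krt8, summed to between 35.5 and 37.3 CPM in D1, 80.3 and 83.4 in P, 38.8 and 41.4 in RBPMS KD1, and 53.7 and 54.6 in MBNL KD, with Epcam at 0 in D1 and both knockdowns. The 6 endothelial markers summed to between 0.755 and 0.816 CPM in D1, 5.49 and 6.82 in P, 1.82 and 1.86 in RBPMS KD1, and 0.937 and 1.44 in MBNL KD, with Cdh5 and Kdr at 0 outside P. Of these, 3 of 3 tested markers were higher in P by more than 2-fold at an adjusted p under 0.05, beside 16.4% of all genes, and 2 of 2 in RBPMS KD1, beside 3.06%. Their part in the results for the small heat shock genes was not tested, and in bulk RNA a change in the number of cells of a type cannot be told apart from a change in RNA per cell.

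The comparison of P with D1 addresses which mRNAs differ between the proliferative and the differentiated state. It split the small heat shock genes. Hspb1, Hspb2, Hspb6 and Hspb7 were 3.04 to 3.64-fold lower in P, while Hspb8 was 2.53-fold and Cryab 1.70-fold higher. Genes with an adjusted p under 0.05 (quasi-likelihood test of edgeR, Benjamini-Hochberg) are termed changed, and those that had also moved by more than 2-fold are termed called. By these criteria all 6 genes were changed, beside 77.9% of the 16814 genes tested, and 5 of the 6 were called, beside 27.6% of all genes. Of the 4 that were lower, all were called, a class that held 11.2% of all genes, and Hspb8 was the only one of the 6 in the called class of higher genes, which held 16.4%. The median log2 fold change of the 6 genes was -1.61, compared with 0.02 over all genes tested.

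**Figure D1:**
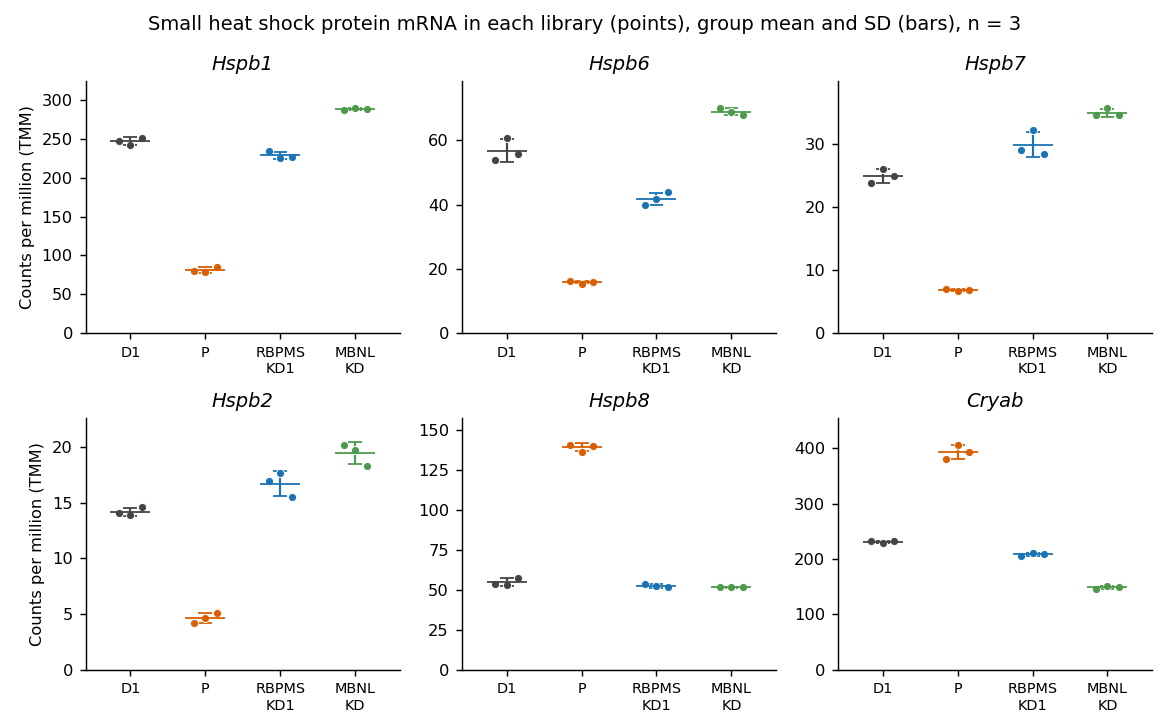
CPM (TMM-scaled, linear axis from 0) of the 6 small heat shock genes in each of the 12 libraries (points), with the group mean and SD (bars, n = 3). The P libraries are the lowest of the 4 groups for Hspb1, Hspb6, Hspb7 and Hspb2 and the highest for Hspb8 and Cryab, and the MBNL KD libraries are the highest for the first 4 genes and the lowest for Cryab.

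The sequence upstream of the genes is shown because the heat shock element, the binding sequence of heat shock factors, is the classical control element of this family, and because genes that moved in opposite directions could be compared over the same window. RefSeq promoter entries of the rat GRCr8 assembly matched 4 of the 6 genes. For each, the 250 bases before the annotated start are given, together with those of Bag3, the co-chaperone that pairs with the Hspb8 protein. The counts were made on mRatBN7.2, and these coordinates apply to GRCr8 only. Capitals mark matches, on either strand, to GAANNTTC and TTCNNGAA, the head-to-head and tail-to-tail pairings of the heat shock repeat, to TATAAA, to the CArG box bound by serum response factor and to the site bound by MEF2 factors.
Hspb1, chr12:26432302-26432551, minus strand: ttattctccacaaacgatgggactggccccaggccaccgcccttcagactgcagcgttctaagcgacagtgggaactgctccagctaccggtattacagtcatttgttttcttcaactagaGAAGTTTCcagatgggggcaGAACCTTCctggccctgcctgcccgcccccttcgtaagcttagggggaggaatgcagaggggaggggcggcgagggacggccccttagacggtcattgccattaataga
Hspb6, chr1:94934122-94934371, plus strand: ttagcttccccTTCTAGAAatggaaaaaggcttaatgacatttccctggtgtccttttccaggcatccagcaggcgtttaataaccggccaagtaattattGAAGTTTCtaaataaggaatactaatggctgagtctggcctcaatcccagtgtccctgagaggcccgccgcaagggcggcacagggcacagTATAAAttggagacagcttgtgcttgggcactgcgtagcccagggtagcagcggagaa
Hspb7, chr5:159010509-159010758, plus strand: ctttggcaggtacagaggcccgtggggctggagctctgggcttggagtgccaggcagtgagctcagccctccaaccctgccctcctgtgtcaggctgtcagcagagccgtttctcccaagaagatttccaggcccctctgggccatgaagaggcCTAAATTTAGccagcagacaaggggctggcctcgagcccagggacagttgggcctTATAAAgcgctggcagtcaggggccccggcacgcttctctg
Hspb8, chr12:45837058-45837307, plus strand: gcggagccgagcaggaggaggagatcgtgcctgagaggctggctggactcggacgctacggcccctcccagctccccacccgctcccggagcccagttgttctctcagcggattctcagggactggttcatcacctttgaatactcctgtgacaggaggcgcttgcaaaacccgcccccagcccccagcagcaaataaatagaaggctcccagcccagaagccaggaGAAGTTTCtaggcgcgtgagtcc
Bag3, chr1:192533210-192533459, plus strand: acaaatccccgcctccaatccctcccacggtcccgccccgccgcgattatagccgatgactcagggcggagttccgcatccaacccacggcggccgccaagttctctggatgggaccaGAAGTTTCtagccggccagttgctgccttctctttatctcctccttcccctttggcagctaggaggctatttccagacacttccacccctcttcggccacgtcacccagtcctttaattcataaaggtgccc
The heat shock pairing GAANNTTC was present in Hspb1, at 129 and 109 bases before the start, in Hspb6 at 149 bases, in Hspb8 at 23 bases and in Bag3 at 132 bases. It occurs in the same window of 7.23% of 33469 promoters, and in 10 of 42 promoters of listed Hsp70, J-domain, Hsp90, Hsp60 and CCT genes and co-chaperones, Bag3 among them. In each of these 4 genes a match read GAAGTTTC, and this sequence, singled out after the matches had been seen, was found on either strand of 1.22% of all promoters. Hspb6 also held TTCNNGAA, 239 bases before the start, a pairing found in 7.48% of promoters and in 9 of those 42. Either pairing was present in 13.5% of all promoters and in 15 of the 42. The window of Hspb7 held neither heat shock pairing, but a MEF2 site at 96 bases, as 2.96% of promoters do. TATAAA was found in Hspb6 and Hspb7, at 58 and 41 bases before the start, and in 12.9% of all promoters. None of the 5 windows held a CArG box, which 1.5% of promoters do. Genes with the heat shock pairing were thus among those that were lower in P (Hspb1 and Hspb6) and among those that were higher (Hspb8 and Bag3). These matches describe letters in a window and say nothing about which factor was bound.

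Hspb1 (HSP27) caps and stabilises actin filaments and is a substrate of the kinase MAPKAPK2. Its mRNA had 248, 243 and 252 CPM in the 3 D1 libraries and 80.1, 78.7 and 85.6 CPM in the 3 P libraries. Every P library was thus at about the same low level and well below every D1 library. Hspb1 fell by 1.61 on the log2 scale (SE 0.0287, adjusted p = 2.0e-31), and 6.04% of tested genes had a lower log2 fold change.

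Hspb6 (HSP20) is phosphorylated by cyclic nucleotide-dependent kinases and is linked with smooth muscle relaxation. It had 53.8, 60.8 and 55.9 CPM in D1 and 16.1, 15.4 and 15.9 CPM in P. The groups did not overlap, and the P libraries varied less than the D1 libraries, with coefficients of variation of 2.34% and 6.31%. The fall was 3.61-fold, a log2 fold change of -1.85 (SE 0.0434, adjusted p = 4.9e-28).

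Hspb7, a cardiovascular family member that binds filamin C, had 23.8, 25.9 and 24.8 CPM in D1 and 7.03, 6.68 and 6.83 CPM in P. It was the gene of the 6 with the lowest log2 fold change, -1.86 (SE 0.0554, adjusted p = 4.7e-25), although this differed from that of Hspb6 by less than the standard error of either.

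Hspb2, also called myotonic dystrophy kinase-binding protein after its partner Dmpk, had 14.0, 13.9 and 14.6 CPM in D1 and 4.23, 4.69 and 5.13 CPM in P. It had the fewest counts of the 6 genes, with 398 to 480 counts in P, and the largest relative spread there, with a coefficient of variation of 9.62%. The log2 fold change was -1.60 (SE 0.0704, adjusted p = 3.5e-20), close to that of Hspb1.

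Hspb8 (HSP22) forms a complex with Bag3 that sends damaged filamin and other clients to autophagy. It had 53.7, 53.1 and 57.7 CPM in D1 and 141, 136 and 141 CPM in P, so that every P library held more than 2-fold the level of any D1 library. The log2 fold change was 1.34 (SE 0.0305, adjusted p = 2.1e-28), and 86.7% of tested genes had a lower one. Cryab, which encodes alpha B-crystallin, a chaperone of desmin and other intermediate filaments, had 232, 228 and 232 CPM in D1 and 381, 406 and 393 CPM in P. The groups were clearly separated, and the log2 fold change was 0.76 (SE 0.0257, adjusted p = 1.6e-23), short of the 2-fold threshold. Bag3, the partner of Hspb8, had between 99.6 and 103 CPM in D1 and between 144 and 146 CPM in P (log2 fold change 0.52, SE 0.0262, adjusted p = 1.7e-18).

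**Figure D2:**
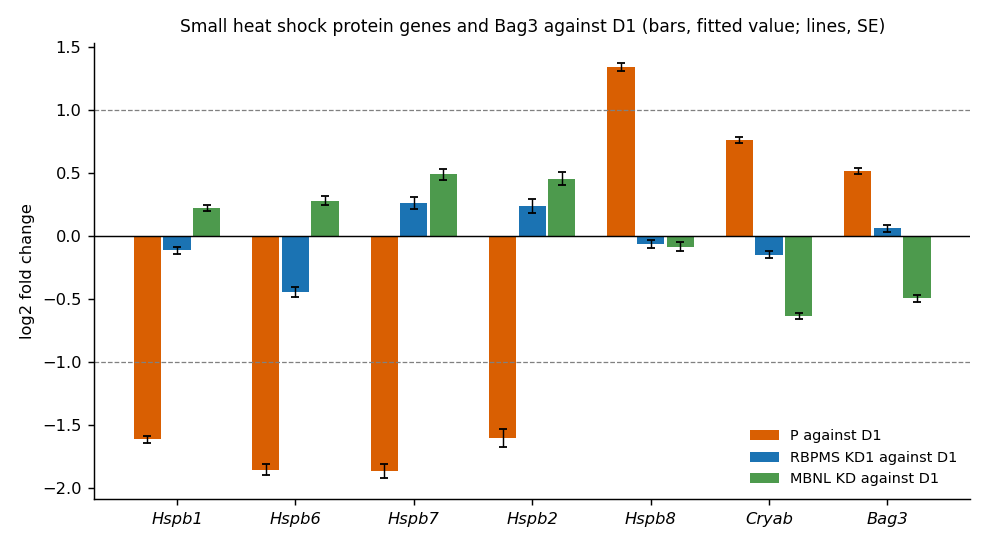
Log2 fold change (bars) with its standard error (lines) for the 6 small heat shock genes and Bag3 in P, RBPMS KD1 and MBNL KD, each against the same D1 libraries, with dashed lines at the 2-fold threshold. In P the bars run from -1.86 for Hspb7 to 1.34 for Hspb8, whereas in the knockdowns none reaches the dashed lines.

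The 6 genes together took 0.0604% ± 0.000781 of all counts in D1 and 0.0689% ± 0.00107 in P (SD, n = 3 each), compared with 0.0562% ± 0.000115 in RBPMS KD1 and 0.0611% ± 0.000579 in MBNL KD. These shares are of the unscaled totals, and on that scale P was above every D1 library. TMM-scaled CPM is a different scale. On it the 6 genes summed to 625 to 637 in D1 and to 629 to 648 in P, which overlapped. The sums were 576 to 580 in RBPMS KD1 and 610 to 618 in MBNL KD, both below every D1 library. The mean unscaled share of MBNL KD, by contrast, was above that of D1. On this second scale Hspb1, Hspb2, Hspb6 and Hspb7 accounted for 340 to 347 CPM in D1 and for 105 to 113 CPM in P, while Hspb8 and Cryab accounted for 281 to 290 CPM in D1 and for 522 to 543 CPM in P. These sums are of reads, not of molecules, since counts were not divided by transcript length.

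RBPMS knockdown in differentiated cells was compared with D1 to ask what follows when this splicing regulator of differentiated cells is lost. It changed 5 of the 6 genes, beside 59.1% of 15904 genes tested, and called 0 of them, beside 4.68% of all genes (3.06% higher and 1.62% lower). The largest difference was that of Hspb6, which was 1.36-fold lower, whereas Hspb7 was 1.203-fold and Hspb2 1.181-fold higher. The median log2 fold change of the 6 genes was -0.09, against 0.004 over all genes tested. All p-values of this comparison were computed against the D1 libraries that also served for P.

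Hspb6 had 39.9, 41.7 and 43.8 CPM in the RBPMS KD1 libraries, each under the lowest D1 library. This is a log2 fold change of -0.44 (SE 0.041, adjusted p = 2.3e-10), and 11.3% of tested genes had a lower one. Hspb1 had 234, 225 and 227 CPM, just under the D1 range, and a log2 fold change of -0.11 (SE 0.0257, adjusted p = 0.00048). Cryab had 205, 211 and 210 CPM and a log2 fold change of -0.14 (SE 0.0248, adjusted p = 1.1e-05). For these last genes the groups did not overlap, but the group means were still 92.5% and 90.3% of those of D1.

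Hspb7 and Hspb2 moved the other way. Hspb7 had 29.0, 32.1 and 28.4 CPM in RBPMS KD1, all above the D1 libraries, with a log2 fold change of 0.27 (SE 0.0474, adjusted p = 1.9e-05). Hspb2 had 17.0, 17.7 and 15.5 CPM, with a log2 fold change of 0.24 (SE 0.0551, adjusted p = 0.00045). Hspb8 had 53.6, 52.3 and 51.6 CPM, overlapping the D1 libraries, and did not pass the test, with a log2 fold change of -0.06 (SE 0.0351, adjusted p = 0.14). Of the 4 genes that were lower in P, Hspb1 and Hspb6 were therefore lower and Hspb2 and Hspb7 higher after RBPMS knockdown. A direct comparison of P with RBPMS KD1 gave lower levels in P for all 4, with log2 fold changes from -2.15 for Hspb7 to -1.43 for Hspb6, and higher levels for Hspb8 (1.38) and Cryab (0.89), all 6 with adjusted p under the threshold, beside 79.4% of all genes (40.5% higher and 39% lower). Of these, 5 were called, beside 29.1% of all genes.

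MBNL1 and MBNL2 knockdown was compared with D1 in the same way. Hspb1, Hspb2, Hspb6 and Hspb7, the genes that were lower in P, were each 1.169 to 1.405-fold higher in MBNL KD, and Cryab, which was higher in P, was 1.55-fold lower. All 6 genes were changed, beside 67.5% of 16053 genes tested, with 4 higher and 2 lower, beside 33.8% and 33.7% of all genes. As in RBPMS KD1, 0 of the 6 were called, beside 10.2% of all genes (6.1% higher and 4.14% lower). The median log2 fold change of the 6 genes was 0.25, against 0.01 over all genes tested.

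Cryab had 146, 151 and 149 CPM in the MBNL KD libraries, far under the lowest D1 library. The log2 fold change was -0.63 (SE 0.0242, adjusted p = 8.5e-20), the largest in size of the 6, and 10.7% of tested genes had a lower one. Without MBNL KD replicate 3 it was -0.63 as well (adjusted p = 1.4e-16). Bag3 was lower too, with 69.7, 72.9 and 72.1 CPM and a log2 fold change of -0.49 (SE 0.027, adjusted p = 4.6e-16), and of -0.50 without MBNL KD replicate 3.

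Hspb7 had 34.5, 35.6 and 34.4 CPM in MBNL KD, and every library was above every D1 library, with a log2 fold change of 0.49 (SE 0.0409, adjusted p = 8.0e-12). Hspb2 had 20.2, 19.7 and 18.3 CPM and a log2 fold change of 0.46 (SE 0.0521, adjusted p = 5.8e-09). Hspb6 had 70.04, 69.0 and 67.9 CPM and a log2 fold change of 0.28 (SE 0.0347, adjusted p = 2.7e-08). Hspb1 had 288, 290 and 289 CPM, with a coefficient of variation of 0.349%, and a log2 fold change of 0.22 (SE 0.0248, adjusted p = 3.2e-09). Without MBNL KD replicate 3 the log2 fold changes of these 4 genes were 0.50, 0.50, 0.29 and 0.23, in the same order, and each still passed the test. Hspb8 had 51.6, 52.1 and 51.6 CPM, all slightly under the lowest D1 library of 53.1. Its log2 fold change of -0.08 passed the test (SE 0.0333, adjusted p = 0.031), but not without MBNL KD replicate 3 (adjusted p = 0.068), without MBNL KD replicate 1 (adjusted p = 0.07) or without D1 replicate 3 (adjusted p = 0.23). P against MBNL KD gave the widest differences, with log2 fold changes of -1.86, -2.09, -2.16 and -2.38 for Hspb1, Hspb2, Hspb6 and Hspb7, 1.39 for Hspb8 and 1.37 for Cryab. There all 6 genes were changed, beside 81.5% of all genes (41.4% higher and 40.1% lower), and all 6 were called, beside 32.9%. Without MBNL KD replicate 3 all 6 were still called, with log2 fold changes of -1.87, -2.13, -2.18, -2.40, 1.39 and 1.36 in the same order.

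**Figure D3:**
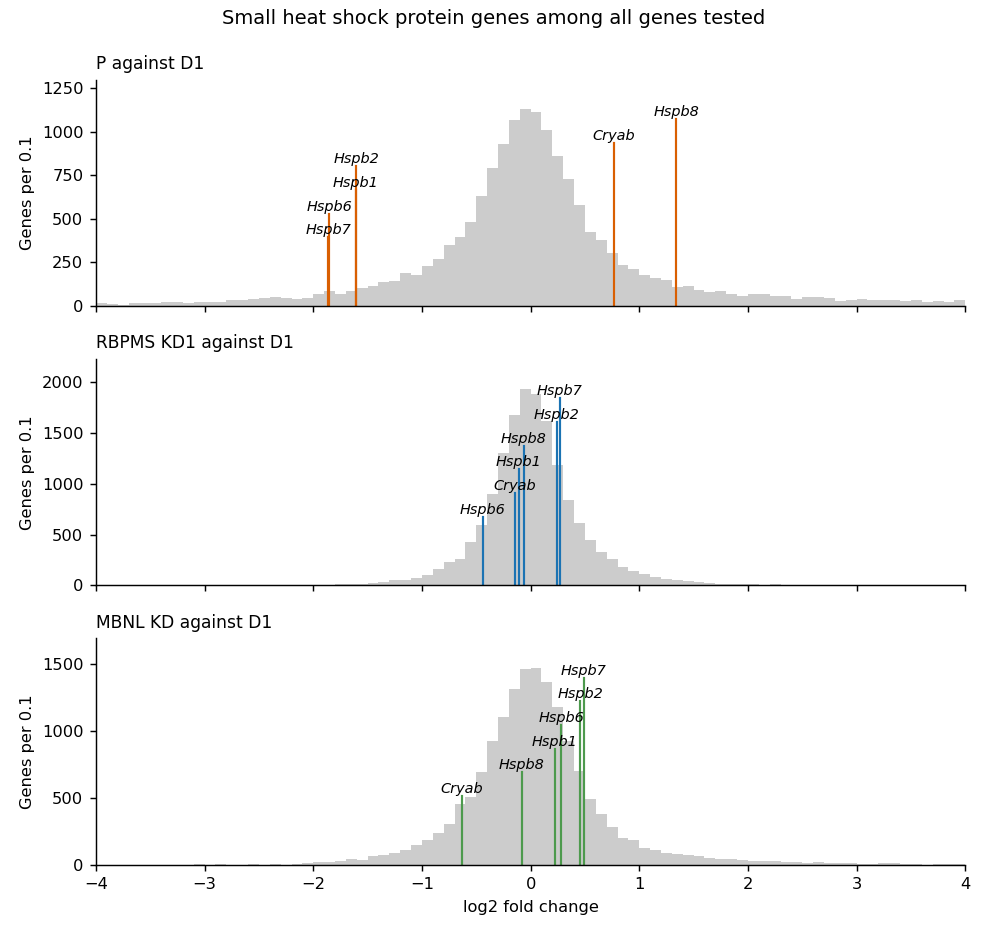
Number of genes in each interval of 0.1 of the log2 fold change (grey) for all genes tested in P, RBPMS KD1 and MBNL KD against D1, with the 6 small heat shock genes marked by coloured lines whose height has no meaning. Genes beyond 4 in either direction are not drawn. In P, 4 of the 6 lie at or under -1.60 and none near 0, whereas in both knockdowns all 6 lie between -0.63 and 0.49.

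Set against each other, the knockdowns differed for 5 of the 6 genes, beside 69.5% of 16111 genes tested (34.5% higher and 35.1% lower in RBPMS KD1), and 0 of the 6 passed the 2-fold threshold, beside 11.9% (6.03% and 5.88%). Hspb6 was 1.65-fold lower in RBPMS KD1 than in MBNL KD (log2 fold change -0.72, SE 0.0344, adjusted p = 1.1e-17), and Cryab was 1.41-fold higher (log2 fold change 0.49, SE 0.0257, adjusted p = 9.0e-17). The log2 fold changes of Hspb1, Hspb7 and Hspb2 were -0.33, -0.22 and -0.21, with adjusted p of 2.0e-12, 5.2e-05 and 0.0011. For Hspb8 it was 0.03 (SE 0.0321, adjusted p = 0.49), and the libraries of the knockdowns overlapped. Without MBNL KD replicate 3 the log2 fold changes of Hspb6, Cryab, Hspb1, Hspb7, Hspb2 and Hspb8 were -0.72, 0.50, -0.32, -0.22, -0.24 and 0.03, and the same 5 passed the test.

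The order of the 4 groups was therefore not the same for every gene. It was MBNL KD, D1, RBPMS KD1 and P for Hspb1 and Hspb6, and MBNL KD, RBPMS KD1, D1 and P for Hspb2 and Hspb7, with each step past the test. For Cryab it was P, D1, RBPMS KD1 and MBNL KD, again with each step past the test. For Hspb8, P was above all 3 groups of differentiated cells, and of those neither D1 and RBPMS KD1 nor RBPMS KD1 and MBNL KD differed beyond their spread. Over all 12 libraries, each gene centred on its own mean of log2 CPM, the closest pair was Hspb2 and Hspb7, with a root mean square difference of 0.147, followed by Hspb1 and Hspb2 at 0.163 and Hspb1 and Hspb6 at 0.173. Hspb8 and Cryab differed from each other by 0.266 and from the other 4 genes by 1.21 to 1.53. These are descriptions over libraries that share groups and scaling.

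Hspb2 and Cryab are neighbours in the genome, known for lying head to head with a short shared upstream region. In D1 there were 16.3 ± 0.304 Cryab counts per Hspb2 count, and this ratio was 84.5 ± 6.99 in P, 12.5 ± 0.875 in RBPMS KD1 and 7.68 ± 0.449 in MBNL KD (SD, n = 3 each). The 3 P libraries were all above, and all knockdown libraries below, every D1 library, and the MBNL KD libraries other than replicate 3 had ratios of 7.24 and 7.66. It is a ratio of reads and not of molecules, since the transcripts differ in length. In the RefSeq gene table of GRCr8 the spans of the genes overlap, and although the labels name a directional library kit, the strand setting of the counting was not stated in the sources used here, so that reads from a shared stretch cannot be assigned with certainty and the Hspb2 values are uncertain to that extent. The same holds for Hspb6, whose span overlaps that of Lin37, and the extent of these overlaps was not measured. Lin37 had log2 fold changes of -0.07 in P, -0.09 in RBPMS KD1 and -0.13 in MBNL KD, of which the last passed the test (adjusted p = 0.034).

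**Figure D4:**
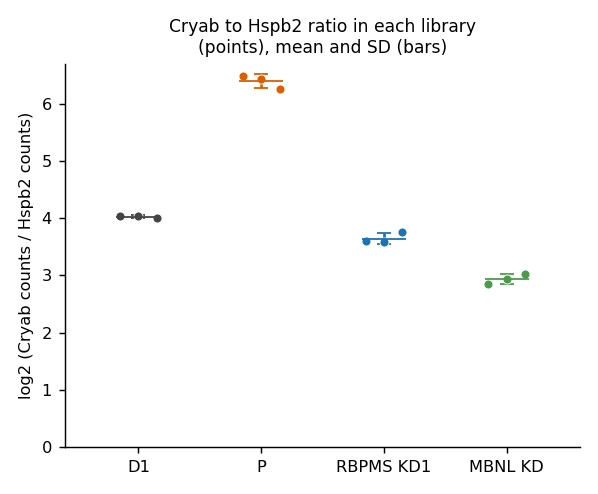
Log2 of the ratio of Cryab to Hspb2 counts in each library (points), with the group mean and SD (bars, n = 3), on an axis that starts at 0. The P libraries lie between 6.26 and 6.49, the D1 libraries between 3.99 and 4.05, the RBPMS KD1 libraries between 3.58 and 3.76 and the MBNL KD libraries between 2.85 and 3.02.

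Other members of the small heat shock family were nearly silent. Of Hspb3, Hspb9, Cryaa and Odf1, only Hspb9 passed the filter on low counts, with between 15 and 43 counts in any library, and it did not pass the test in P, RBPMS KD1 or MBNL KD (log2 fold changes -0.20, 0.45 and 0.14, adjusted p = 0.63, 0.27 and 0.75). Hspb3, which pairs with Hspb2 in skeletal muscle, had at most 2 counts, Cryaa at most 2 and Odf1 at most 11.

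The chaperone partners of these proteins were taken as lists. Of 52 listed genes of the Hsp70, J-domain, Hsp90, Hsp60 and CCT chaperones and the heat shock factors with Hsbp1, 50 were tested in each comparison. In P, 18 of them were higher and 19 lower at an adjusted p under 0.05, beside 40.4% and 37.6% of all genes, and 5 and 3 were called, beside 16.4% and 11.2%, with a median log2 fold change of -0.03. These 5 and 3 of 50 genes are smaller shares than those of all genes. In RBPMS KD1, 7 were higher and 34 lower, beside 29.5% and 29.5% of all genes, and 0 were called, beside 3.06% and 1.62%, with a median of -0.20. In MBNL KD, 13 were higher and 26 lower, beside 33.8% and 33.7% of all genes, and 0 and 3 were called, beside 6.1% and 4.14%, with a median of -0.08. Leaving out MBNL KD replicate 3 gave 12 higher and 26 lower, of which 0 and 3 were called.

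Among the Hsp70 genes and their co-chaperones, 16 were tested. In P, 7 rose and 5 fell, beside 40.4% and 37.6% of all genes, with Hspa4l higher (log2 fold change 1.82), Hspa2 higher (1.23) and Bag2, an inhibitor of the ubiquitin ligase Stub1, lower (-1.51). In RBPMS KD1 and MBNL KD, Hspa2 had log2 fold changes of 0.51 and -0.08 (adjusted p = 1.8e-07 and 0.35) and Bag2 of -0.29 and 0.53 (adjusted p = 6.9e-09 and 5.5e-17). Hspa4l did not pass the test in RBPMS KD1 (0.09, adjusted p = 0.52). Hspa1b, the stress-inducible Hsp70, was lower in P, RBPMS KD1 and MBNL KD (-2.24, -0.36 and -1.40, adjusted p = 9.2e-14, 0.017 and 8.5e-10). Its counts are uncertain because its near-identical copy Hspa1a had no row of its own. Hspa8, the constitutive Hsp70, was lower in all 3 comparisons (log2 fold changes -0.19, -0.36 and -0.27 in P, RBPMS KD1 and MBNL KD). In MBNL KD, 4 genes rose and 8 fell, beside 33.8% and 33.7% of all genes, among them Hspa4l (-1.16). Leaving out its replicate 3, 3 rose and 7 fell, with Hspa1b at -1.48 and Hspa4l at -1.37. Bag3, given above for P and MBNL KD, had in RBPMS KD1 a log2 fold change of 0.06 that did not pass the test (adjusted p = 0.053). In RBPMS KD1, 4 genes of this list rose and 6 fell, beside 29.5% and 29.5% of all genes.

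Of 9 J-domain proteins, which deliver clients to Hsp70, 3 rose and 4 fell in P, beside 40.4% and 37.6% of all genes. The only one called was Dnajb5, which had log2 fold changes of -1.47 in P, -0.54 in RBPMS KD1 and 0.58 in MBNL KD (adjusted p = 6.5e-26, 9.6e-14 and 1.9e-16). In RBPMS KD1, 2 rose and 7 fell, beside 29.5% and 29.5%, and in MBNL KD 5 rose and 4 fell, beside 33.8% and 33.7%, as without its replicate 3. Of 21 tested Hsp90, Hsp60 and CCT genes, 7 rose and 7 fell in P, 1 rose and 18 fell in RBPMS KD1, and 3 rose and 12 fell in MBNL KD (3 and 13 without replicate 3), beside those same shares of all genes. Their largest change was in Fkbp5, an Hsp90 co-chaperone of steroid receptors, with log2 fold changes of 2.51 in P, -0.39 in RBPMS KD1 and -1.02 in MBNL KD. Fkbp4, a related immunophilin, rose in P (1.30) and fell in RBPMS KD1 (-0.55) and MBNL KD (-0.39).

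Among the heat shock factors, Hsf1, the factor that drives the acute heat shock response, was lower in all 3 comparisons, with log2 fold changes of -0.49 in P, -0.16 in RBPMS KD1 and -0.37 in MBNL KD (SE 0.0415, 0.0393 and 0.0422, adjusted p = 1.6e-12, 0.00085 and 5.1e-09). Hsf4 rose in P (log2 fold change 2.07, adjusted p = 4.0e-14) from a low level, between 0.701 and 0.895 CPM in D1 and between 3.01 and 3.88 CPM in P. The 4 genes of this list were the factors Hsf1, Hsf2 and Hsf4 and Hsbp1, which encodes a protein that binds and inhibits Hsf1. Of the 4, 1 was higher and 3 were lower in P, 0 and 3 in RBPMS KD1, and 1 and 2 in MBNL KD with and without replicate 3, where the shares of all genes were 40.4% and 37.6%, 29.5% and 29.5%, and 33.8% and 33.7%. The gene that was higher in MBNL KD was Hsbp1 (log2 fold change 0.12, adjusted p = 8.8e-05), and Hsf4 did not pass the test there (0.22, adjusted p = 0.38). Hsbp1 was lower elsewhere, at 87.7% of its D1 mean in P and 64.7% in RBPMS KD1.

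**Figure D5:**
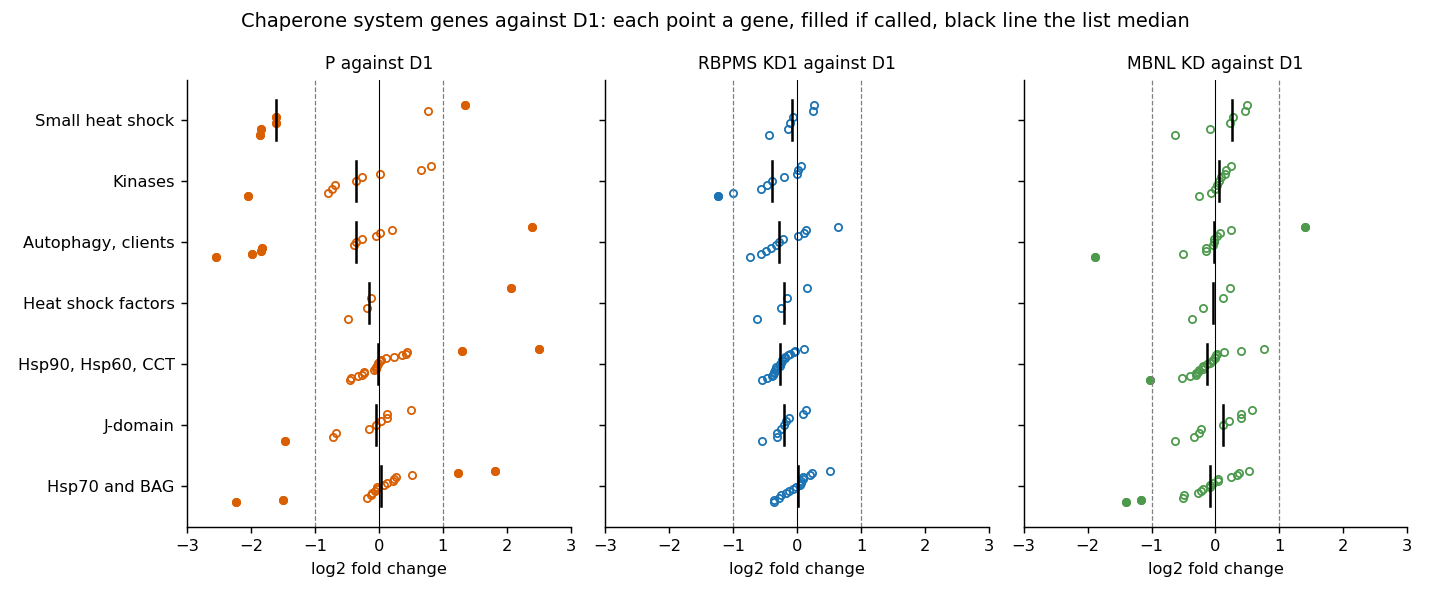
Log2 fold change against D1 of each tested gene of 7 lists (points, filled where the adjusted p is under 0.05 and the change over 2-fold), with the median of each list (black line) and dashed lines at the 2-fold threshold. In P the median of the small heat shock genes is at -1.61, while those of the 4 chaperone and heat shock factor lists lie between -0.16 and 0.03.

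The proteins that small heat shock proteins act on formed another list. Of 11 tested genes of chaperone-assisted autophagy and its clients, 2 rose and 7 fell in P, beside 40.4% and 37.6% of all genes. In RBPMS KD1, 3 rose and 7 fell, beside 29.5% and 29.5%, and in MBNL KD 3 rose and 4 fell, beside 33.8% and 33.7%. Without MBNL KD replicate 3, 12 genes of the list were tested, and 4 rose and 4 fell. Flnc, the filamin of muscle and a client of the Bag3 complex, had between 700 and 722 CPM in D1, between 201 and 204 in P, between 494 and 520 in RBPMS KD1 and between 839 and 845 in MBNL KD. Its log2 fold changes were -1.82, -0.49 and 0.24, next to -1.85, -0.44 and 0.28 for Hspb6. Dmpk, the partner of Hspb2, had the largest fall of the list in P (log2 fold change -2.54, adjusted p = 2.4e-35), and its log2 fold changes were -0.33 in RBPMS KD1 and -0.02 in MBNL KD, the latter not past the test (adjusted p = 0.45). Synpo2, which ties the Bag3 complex to autophagosome formation, fell in all 3 comparisons, with log2 fold changes of -1.84 in P, -0.74 in RBPMS KD1 and -1.88 in MBNL KD, the last -1.86 without replicate 3. Flna, the widely expressed filamin, had log2 fold changes of -1.99 in P, -0.57 in RBPMS KD1 and -0.50 in MBNL KD, all past the test. Des, the desmin gene and a client of alpha B-crystallin, was higher in P (log2 fold change 2.39, adjusted p = 5.0e-24), in RBPMS KD1 (0.64, adjusted p = 6.1e-06) and in MBNL KD (1.41, adjusted p = 4.7e-14, and 1.45 without replicate 3), while Cryab was lower in both knockdowns. It was a low gene throughout, with between 2.34 and 2.69 CPM in D1 and between 12.9 and 13.6 CPM in P.

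Among 9 kinases that phosphorylate Hspb1 and Hspb6, or act upstream of those that do, 2 rose and 6 fell in P, beside 40.4% and 37.6% of all genes. Prkg1, the cGMP-dependent kinase, was the only one called there (log2 fold change -2.04, adjusted p = 7.7e-20), in a class of lower genes that held 11.2% of all genes. Its log2 fold changes were -0.47 in RBPMS KD1 (adjusted p = 4.7e-06) and -0.07 in MBNL KD (adjusted p = 0.40). In RBPMS KD1, 0 rose and 6 fell, beside 29.5% and 29.5%, and Mapk14, the p38 kinase upstream of MAPKAPK2, was called (log2 fold change -1.24, SE 0.028, adjusted p = 7.4e-24), where 1.62% of all genes were called lower. Its log2 fold changes were -0.35 in P and -0.26 in MBNL KD. In MBNL KD, 3 rose and 1 fell, beside 33.8% and 33.7%, and 4 rose and 1 fell without replicate 3.

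The genes with the most similar pattern were sought among 17511 genes over the 12 libraries, by the root mean square difference of centred log2 CPM. For Hspb6 the nearest was Flnc (0.0611), followed by Ift57 (0.0658) and Fam217b (0.0687). For Hspb1 they were LOC100910821 (0.0505), LOC684871 (0.0593) and Mga (0.0652), for Hspb7 Cdkn1a (0.0791), Sgce (0.0814) and LOC120098827 (0.0832), and for Hspb2 Fn1 (0.0785), Ptges3l (0.0924) and Spry2 (0.102). The gene nearest to Hspb8 was Hsd17b10 (0.0333), before Mboat7 (0.0652) and F2r (0.0686). For Cryab they were Tent4b (0.0561), Uba6 (0.0573) and Nqo1 (0.0653), whose log2 fold changes in P were 0.70, 0.66 and 0.68 and in MBNL KD -0.62, -0.68 and -0.73. The nearest genes were selected for this likeness, and their values are a description.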

How the data were processed

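RNA-Seq counts of 12 libraries were used as deposited: the authors subsampled reads to equal depth with seqtk, aligned them to mRatBN7.2 with STAR 2.7.11b and used featureCounts with RefSeq gene models. The second deposited table, of signal values after noisyR and quantile normalization by the authors, served for 1 alternative. Strand setting and counting of mates were not given in the sources used here. Totals per library were above the read depth that the study states after subsampling, and whether mates were counted singly was not tested. Columns were matched to samples by library name.

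For each pair of groups, the 6 libraries concerned were tested with edgeR 4.0.16 in R 4.3.3 (filterByExpr, TMM, quasi-likelihood F test, Benjamini-Hochberg adjustment over all genes tested). SE is |log2 fold change| over the root of F. Levels are CPM with TMM factors over the 12 libraries. Alternatives used DESeq2 1.42.0 size factors and Wald test, upper-quartile factors, no filter, limma 3.58.1 on log2 of the normalised values, 1 fit of all libraries, the replicate number as a block, and leaving out each library. The labels share replicate numbers between groups, but describe no pairing. The study's methods state at least 3 biological replicates per condition, but the labels do not say which libraries came from separate cultures. The p-values therefore weigh group differences against the spread between these samples. With 3 libraries against 3 an exact permutation test cannot go below p = 0.1, and none was used.

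The members and gene lists were chosen with earlier results of these data known. Named are the 6 members, Bag3, Hsf1, Hspa8, the knockdown targets, of each other list the up to 3 called genes with the largest change against D1, and the 3 genes most like each member (log2 CPM, prior count 2). Hspa2, Synpo2 in P, Hspb3, Hspb9, Cryaa, Odf1, Hsf2, Hsbp1, Hspb11 and the neighbouring genes fall outside this rule and were named after their values were seen. Cell type markers are given as sums, with the genes that carry a sum or were at 0 named after their values were seen, and not all called markers are named. On simulated counts with 200 genes changed at least 3-fold, edgeR called 200 of 200 for each comparison with D1. It also called 3, 3 and 2 of the other genes among 15720, 15777 and 15736 tested (P, RBPMS KD1, MBNL KD). The simulation used a common dispersion for all genes and balanced rises with falls. It therefore did not test smaller changes, such as those of the knockdowns, or uneven ones.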

Additional observations from a re-analysis of the deposited data

Results flagged for a closer look

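Hspb1 and Hspb6 moved in opposite directions in the knockdowns, lower in RBPMS KD1 and higher in MBNL KD than in D1, and the direct comparison of RBPMS KD1 with MBNL KD passed edgeR's quasi-likelihood test for both. The log2 fold change of that comparison was -0.33 for Hspb1 (adjusted p = 2.0e-12) and -0.72 for Hspb6 (adjusted p = 1.1e-17). For both genes every RBPMS KD1 library was under, and every MBNL KD library above, all 3 D1 libraries. Over the 13 alternatives the log2 fold change of the direct comparison lay between -0.38 and -0.30 for Hspb1 and between -0.78 and -0.68 for Hspb6.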

How the results depend on the processing

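Of the 6 small heat shock genes, 5 were called in P against D1 under each of the 13 alternatives, and 0 in each of RBPMS KD1 and MBNL KD against D1. In P against RBPMS KD1, limma on the normalised values called 6 rather than 5, with a log2 fold change of 1.02 for Cryab. Every fold change of Hspb1, Hspb2, Hspb6, Hspb7 and Cryab kept its direction and its side of the adjusted p threshold. The exceptions were all in Hspb8, including the losses without single libraries given in the report. In MBNL KD against D1 its log2 fold change was 0.001 with limma on the normalised values (adjusted p = 0.99) and -0.01 with upper-quartile factors (adjusted p = 0.89), and in RBPMS KD1 against MBNL KD it was -0.023 with upper-quartile factors (adjusted p = 0.54) and -0.028 with limma on the normalised values (adjusted p = 0.35). The numbers of all genes called with limma on the normalised values were 209 in RBPMS KD1 and 784 in MBNL KD against D1, and 1050 between the knockdowns, where the counts gave 745, 1643 and 1920. Of those, 50.2% were higher in RBPMS KD1 and 49.5% in MBNL KD, against 65.4% and 59.6% from the counts. In P against D1, limma called 1582 genes higher and 1557 lower (50.4% higher), where the counts gave 2758 and 1883 (59.4%). The causes were not tested. With the replicate number as a block, 4593, 730 and 1634 genes were called in P, RBPMS KD1 and MBNL KD against D1, and no call of a small heat shock gene changed. Same-numbered libraries had deviation correlations between -0.0335 and 0.0203. These values show no strong shared deviation over genes, but cannot exclude that such libraries were handled together.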

Other observations

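Some genes next to the small heat shock genes, by their order in the GRCr8 table, are given here, chosen after the data had been seen. Dixdc1, which lies beyond Hspb2, had log2 fold changes of -1.11 in P, -0.54 in RBPMS KD1 and -0.23 in MBNL KD (adjusted p = 2.7e-23, 1.2e-13 and 3.3e-07), and Hspb2 was higher in MBNL KD. Fdxacb1, on the Cryab side, had log2 fold changes of 0.03, 0.13 and 0.35, of which the last passed the test (adjusted p = 0.82, 0.30 and 0.0044). Ywhag, a 14-3-3 gene that adjoins Hspb1, had log2 fold changes of -0.37, -0.23 and 0.08 (adjusted p = 2.3e-15, 2.5e-09 and 0.0071). Proser3, upstream of Hspb6, had log2 fold changes of -0.37, -0.21 and -0.29. Suds3, near Hspb8, had log2 fold changes of 0.24 in P, -0.72 in RBPMS KD1 and -0.56 in MBNL KD, where Hspb8 had 1.34, -0.06 and -0.08. Srrm4, which lies nearer to Hspb8, had 2.59, 0.93 and 1.51, past the test in P and MBNL KD only. It was a low gene, with a mean of 10.7 counts in D1.

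Hspb11, which carries the family name but encodes a protein of cilia transport, was chosen for its name after the data had been seen. It had between 5.31 and 6.06 CPM in D1 and between 11.05 and 11.35 CPM in P, a log2 fold change of 0.99 (adjusted p = 1.2e-14), and log2 fold changes of 0.33 in RBPMS KD1 and 0.13 in MBNL KD (adjusted p = 0.00056 and 0.16).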
